A study of Mus musculus with 86 samples.

Results

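The genes that present antigen, H2-K1, H2-D1, H2-Aa, H2-Ab1, H2-Eb1, Cd74, B2m and Tap1, were read in mouse hearts by every probe set that the platform annotation names for 1 of them alone. There were 28 such probe sets of 45101, 4 for H2-K1, 9 for H2-D1, 4 for H2-Aa, 3 for H2-Ab1, 1 each for H2-Eb1 and Cd74, 2 for B2m and 4 for Tap1. Another 3 probe sets carry a member together with other genes and were set aside. The hearts came from 4 lines of mice: B2KO, a label that is not spelled out, wild-type FVB, wild-type B6129SF2/J and wild-type C57BL/6. In each line mice were infused with isoproterenol, which stimulates the beta-adrenergic receptors, for 14 days at 120 µg/g/day, or left untreated. The untreated mice had no infusion, so the infusion itself and the drug cannot be told apart. Treated and untreated arrays in the comparisons numbered 10 and 10 in B2KO, 12 and 10 in FVB, 12 and 10 in B6129SF2/J, and 10 and 11 in C57BL/6. Levels are log2 of an intensity divided by the median of its array, so that 0 is the array's median, and a level can be set only against the same probe set in other hearts. FVB and C57BL/6 mice differ in H2 haplotype, the inherited set of alleles at the major histocompatibility complex, and a probe written for 1 allele can read another allele less well.

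Major histocompatibility complex class I molecules show peptides from inside the cell to CD8 T cells and are made by nearly all nucleated cells. H2-K1 and H2-D1 encode their heavy chains, B2m the small chain common to them, and Tap1 a chain of the pump that carries peptides into the endoplasmic reticulum. Class II molecules show peptides taken up from outside to CD4 T cells and are made mainly by macrophages, dendritic cells and B cells. H2-Aa and H2-Ab1 encode the alpha and beta chains of the class II molecule I-A, H2-Eb1 the beta chain of I-E, and Cd74 the invariant chain that holds class II molecules until peptide is loaded. Interferon gamma raises both classes. In whole hearts, fewer cells of a type and less RNA per cell cannot be told apart.

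The promoters of these genes are known to share a module of short boxes, among them the X2 box, which resembles the cAMP response element, and the Y box, a reversed CCAAT that NF-Y binds. RefSeq sequences of build GRCm38.p6 were at hand for 6 of the 8 genes, and H2-Ab1 and Cd74 are named only. The 120 bases before the start are printed for the genes in which the letters of both boxes lay close together. Whether these letters have a part in the levels described below, after isoproterenol or between lines, was not tested. Capitals mark TGACG, the core letters of the cAMP response element, and CCAAT, each on either strand, so that ATTGG is CCAAT reversed. In H2-Aa the capitals TGACGTCA are TGACG on both strands, which overlap.
H2-K1 (chr17:34000348-34000467, minus strand, the first of 2 starts in the table): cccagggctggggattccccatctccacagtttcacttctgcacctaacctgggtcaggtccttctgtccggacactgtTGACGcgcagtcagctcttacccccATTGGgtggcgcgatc
H2-D1 (chr17:35262974-35263093, plus strand): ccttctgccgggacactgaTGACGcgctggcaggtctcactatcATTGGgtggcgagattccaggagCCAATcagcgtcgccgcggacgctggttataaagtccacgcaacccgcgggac
B2m (chr2:122147567-122147686, plus strand): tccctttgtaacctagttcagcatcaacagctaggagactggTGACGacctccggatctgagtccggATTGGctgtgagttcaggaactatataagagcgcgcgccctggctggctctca
H2-Aa (chr17:34287824-34287943, minus strand): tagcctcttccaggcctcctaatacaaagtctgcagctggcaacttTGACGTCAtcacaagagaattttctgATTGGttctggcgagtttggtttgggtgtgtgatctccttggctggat

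From the first base of TGACG to the first base of ATTGG the distance was 25 bases in H2-K1, H2-D1 and B2m and 26 bases in H2-Aa. Over the 250 bases before the start, CCAAT on either strand was held by 33.8% of 32851 promoters and TGACG by 17.8%. TGACG followed by ATTGG at 25 or 26 bases was held by 0.152%, a spacing chosen after these promoters were seen. H2-Eb1 (chr17:34305747-34305866) held CCAAT on both strands and no TGACG in that window. Tap1 (chr17:34187436-34187555) held TGACG 86 bases before the start and CCAAT 222 bases before it. The core of the interferon-stimulated response element, held by 2.98% of promoters, was found in B2m, 139 bases before the start. A match is a run of letters and was not tested for binding.

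The arrays were not of equal quality. Of the 85 arrays compared, the one labelled B2KO isoproterenol replicate 10 stood apart, with a median correlation to the rest of 0.573, where the other 84 lay between 0.831 and 0.963. It is called the failed array. The array labelled FVB isoproterenol replicate 2 lay 3.1 times as far from FVB and B2KO as from C57BL/6 and B6129SF2/J over 200 probe sets that mark the lines. In 5 more arrays Gapdh read 2.06 to 7.43 log2 units higher at its 3' end than at its 5' end, a sign of degraded RNA: untreated B2KO replicate 8, untreated FVB replicate 10, treated B6129SF2/J replicate 7, untreated B6129SF2/J replicate 8 and untreated C57BL/6 replicate 11. Markers of heart muscle were above the array median in every group, 6 of 6, so the labelled tissue was borne out. Values are given with all 85 arrays and, where it matters, without those in doubt.

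Of the 28 probe sets, 22 had a group mean above the array median and were tested, 10 for the class I heavy chains, 3 for B2m and Tap1, and 9 for class II and Cd74. The other 6, of H2-D1 and Tap1, lay below the median in all 8 groups. H2-D1 1425614_x_at entered only through treated FVB hearts, and H2-Aa 1443783_x_at only through untreated C57BL/6 and treated B6129SF2/J hearts, the groups in which they were highest, so a difference that involves those groups is partly fixed by the filter. All 4 probe sets of H2-K1, 7 of 9 of H2-D1, 3 of 4 of H2-Aa and 1 of 3 of H2-Ab1 carry the suffix x_at, by which the manufacturer marks probes that can also match other transcripts. Class I heavy chains are a family of near copies, so which of them such a probe set reads is uncertain.

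The largest differences between lines were in class II. H2-Eb1 was far lower in untreated FVB hearts than in untreated C57BL/6 hearts, and so were 3 of 4 probe sets of H2-Aa, while the fourth probe set of H2-Aa was higher in FVB. H2-Eb1 (1417025_at) read a lowest, median and highest level of −0.89, 0.57 and 1.27 in untreated FVB hearts, against 3.78, 4.70 and 5.16 in untreated C57BL/6 hearts. The difference at H2-Eb1 was −4.25 ± 0.41 (log2, SE, limma adjusted p = 7.24e-14). H2-Aa at 1438858_x_at read −1.02, 1.37 and 2.88 in untreated FVB hearts, against 5.15, 5.92 and 7.57 in untreated C57BL/6 hearts (−4.80 ± 0.42, adjusted p = 5.27e-16). H2-Aa at 1452431_s_at read 2.79, 5.25 and 7.17 in untreated FVB hearts, against 2.36, 3.78 and 4.09 in untreated C57BL/6 hearts, so the order of the lines was turned (1.49 ± 0.44, adjusted p = 0.0124). Other probe sets of H2-Aa, 1435290_x_at and 1443783_x_at, were lower in FVB, with differences of −2.38 ± 0.32 and −2.18 ± 0.32. Of these, 1443783_x_at entered the test through untreated C57BL/6 and treated B6129SF2/J hearts alone, so its difference is partly fixed by the filter.

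**Figure D1:**
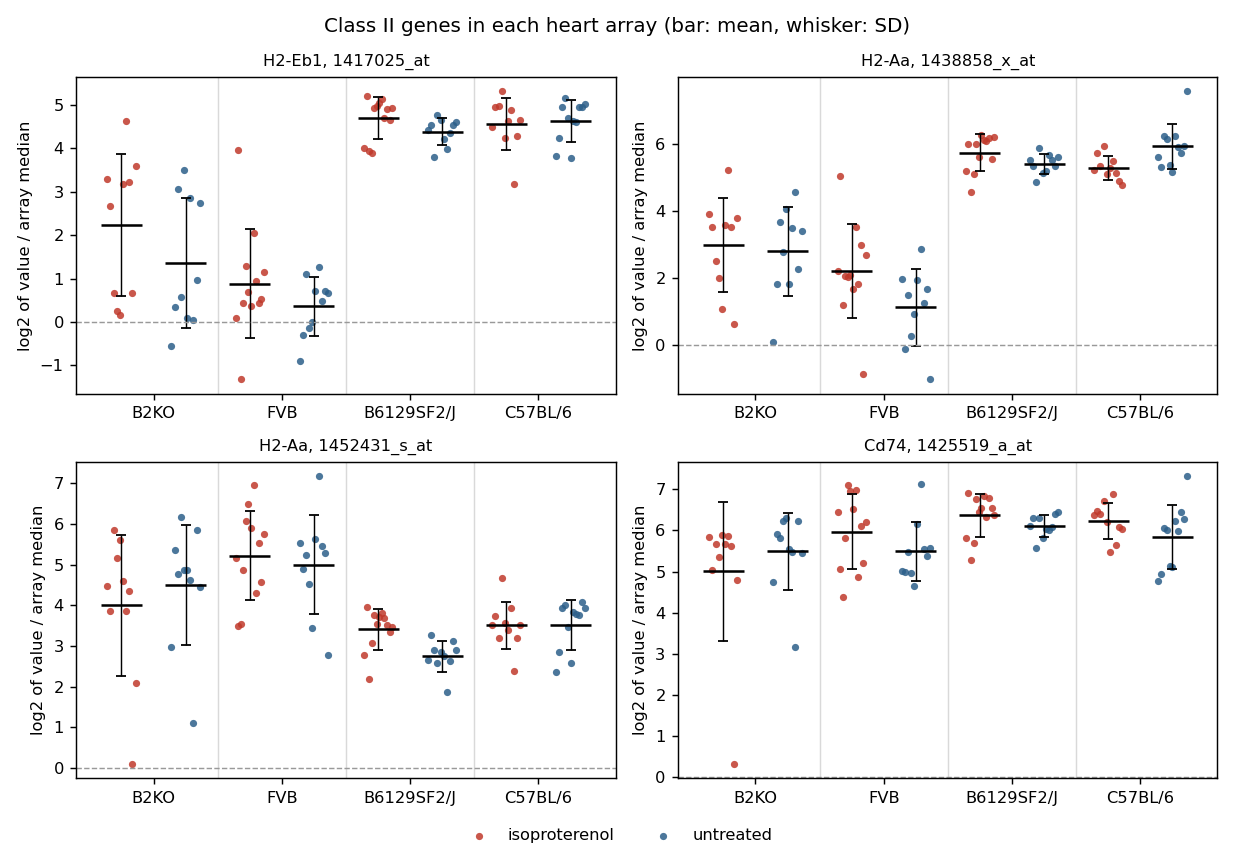
Level of 3 class II probe sets and Cd74 in each heart array, as log2 of the value over the array's median, by line, with isoproterenol left of untreated in each line. Points are arrays, bars are group means and whiskers are SD; H2-Eb1 and H2-Aa 1438858_x_at lie lower in FVB than in C57BL/6, H2-Aa 1452431_s_at lies higher, and the B2KO arrays spread widely at H2-Eb1.

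H2-Ab1, the partner of H2-Aa, was likewise split between its probe sets. At 1425477_x_at it was higher in untreated FVB hearts, with a mean of 3.39 ± 1.14 against 2.10 ± 0.46 in untreated C57BL/6 hearts (SD, n = 10 and 11, difference 1.29 ± 0.41, limma adjusted p = 0.0212). At 1450648_s_at and 1451721_a_at the differences were −0.79 ± 0.40 and −0.86 ± 0.40, and neither passed the test (adjusted p = 0.187 and 0.147). The call at 1425477_x_at was lost without untreated FVB replicate 7, the highest FVB heart (1.01, adjusted p = 0.0806). Cd74, read by 1 probe set (1425519_a_at), averaged 5.49 ± 0.71 in untreated FVB hearts and 5.84 ± 0.78 in untreated C57BL/6 hearts, a difference of −0.35 ± 0.37 that did not pass (adjusted p = 0.593). Cd74 lies outside the H2 region, on chromosome 18.

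The class I heavy chains differed less, and again in both directions. H2-D1 was higher in untreated FVB hearts at 1426324_at (1.51 ± 0.38, limma adjusted p = 0.00292) and at 1451683_x_at (1.27 ± 0.40, adjusted p = 0.0204, or 1.12 with adjusted p = 0.052 without untreated FVB replicate 7). At 1426324_at the FVB hearts read 3.61, 4.79 and 5.74, lowest, median and highest, against 2.13, 3.15 and 4.10 in C57BL/6, so the groups overlapped. H2-K1 was lower in FVB at 1450534_x_at (0.91 ± 0.75 in FVB and 2.30 ± 0.93 in C57BL/6, difference −1.39 ± 0.30, adjusted p = 0.000368), while its other 3 probe sets had differences between −0.36 and 0.81 and did not pass. The other 4 probe sets of H2-D1, 1425545_x_at, 1451784_x_at, 1450170_x_at and 1425614_x_at, had differences of 0.78, 0.89, −0.61 and 0.00 and did not pass. Tap1 (1416016_at) was lower in FVB, at 0.66 ± 0.95 against 1.84 ± 0.71 in C57BL/6 (−1.18 ± 0.33, adjusted p = 0.00801). B2m, which lies on chromosome 2, differed by −0.22 ± 0.23 and −0.28 ± 0.35 at its probe sets, with adjusted p = 0.591 and 0.665.

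In all, 10 of the 22 probe sets passed between untreated FVB and untreated C57BL/6, 4 higher and 6 lower, where 14.5% of all 24885 probe sets tested passed. H2-Aa 1443783_x_at, among the lower ones, entered the test through untreated C57BL/6 and treated B6129SF2/J hearts alone. The median difference was −0.32 over the members and 0.01 over all probe sets. Within H2-Aa, probe sets of the same gene passed in opposite directions in the same hearts. Whether the alleles under the probes or the amount of RNA set these differences was not tested.

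In untreated B2KO hearts H2-Eb1 was spread more widely than in untreated FVB hearts, and no member passed between these groups. None of the 22 probe sets passed between untreated B2KO and untreated FVB by limma, where 0.0402% of all passed. The difference was 1.67 ± 0.43 at H2-Aa 1438858_x_at (limma adjusted p = 0.181) and 1.00 ± 0.42 at H2-Eb1. Without the failed array, treated FVB replicate 2 and treated B2KO replicate 7, chosen after seeing the data, the limma adjusted p at H2-Aa 1438858_x_at was 0.035, where 0.1% of all passed. These arrays are all treated, so leaving them out changed the estimate of the spread, which all groups share, and not this difference between untreated hearts. H2-Eb1 read −0.55, 0.34, 3.05, 0.58, 3.51, 0.08, 2.85, 0.04, 0.96 and 2.73 in untreated B2KO replicates 1 to 10, against −0.89 to 1.27 in untreated FVB hearts. Of the untreated B2KO hearts 4 lay above every untreated FVB heart and the other 6 lay within the FVB range, and of the treated B2KO hearts 6 of 10 lay above it. In treated B2KO hearts H2-Eb1 read 3.30, 2.68, 0.67, 0.26, 0.15, 3.18, 4.63, 3.23, 0.67 and 3.60 in replicates 1 to 8, 10 and 11, where replicate 4 is its average with replicate 9. The value 4.63 in treated B2KO replicate 7 lay within the C57BL/6 range. At the probe sets that mark the lines its distance to its own background was 0.812 of that to the other. This was below the limit of 0.9 for doubt but above the next array at 0.663, with the failed array left aside. Untreated B2KO replicate 5, the highest of its group at 3.51, was also high in T cell markers. The value 0.67 in treated B2KO replicate 10 is the failed array. At H2-Aa 1438858_x_at the 4 untreated B2KO hearts that were high at H2-Eb1 read 3.68, 4.05, 3.48 and 3.39, and the other 6 read 0.08, 1.83, 2.77, 1.83, 4.58 and 2.28. The SD of H2-Eb1 was 1.5 in untreated B2KO hearts and 0.68 in untreated FVB hearts, and 0.31 and 0.48 in untreated B6129SF2/J and C57BL/6 hearts. Other class II probe sets were closer, with an SD of 1.33 in B2KO and 1.14 in FVB at H2-Aa 1438858_x_at and of 0.88 and 0.84 at 1435290_x_at. A wider spread was not confined to class II, with 1.78 in B2KO and 0.47 in FVB at H2-D1 1451784_x_at, where untreated B2KO replicate 8, in doubt by its RNA, read 2.35.

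The array labelled FVB isoproterenol replicate 2 lay within the range of the treated C57BL/6 hearts at both of these probe sets. Its H2-Eb1 level was 3.96, where the other treated FVB hearts lay between −1.32 and 2.04, and its H2-Aa level at 1438858_x_at was 5.05, where the others lay between −0.87 and 3.52. Its H2-D1 level at 1451784_x_at was 6.13, the lowest of its group. It was the lowest treated FVB heart at 9 of the 22 probe sets and the highest at 3.

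**Figure D2:**
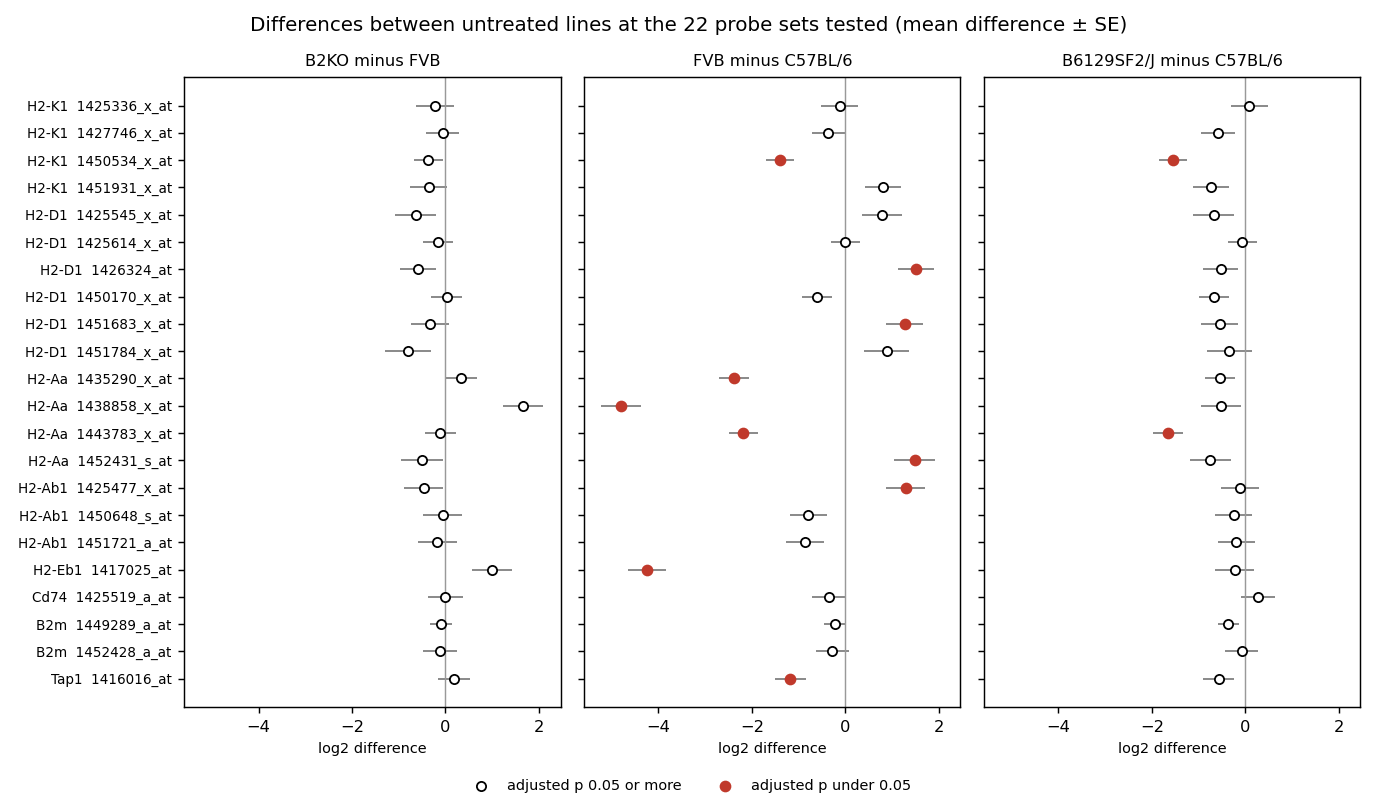
Difference between untreated lines at the 22 probe sets tested, in log2 units with SE, for B2KO minus FVB, FVB minus C57BL/6 and B6129SF2/J minus C57BL/6; filled points passed limma's adjusted p under 0.05. FVB minus C57BL/6 reaches −4.80 and −4.25 at H2-Aa 1438858_x_at and H2-Eb1, with 1.49 at another H2-Aa probe set.

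Untreated B6129SF2/J hearts differed from untreated C57BL/6 hearts at 2 of the 22 probe sets, both lower, where 11.2% of all passed. In the same untreated comparison 4 of 5 B cell markers and 3 of 6 heart muscle markers were higher, and 3 of 11 macrophage markers and 3 of 16 interferon response genes were lower in B6129SF2/J, whose part in these levels was not tested. H2-K1 at 1450534_x_at averaged 0.75 ± 0.65 in B6129SF2/J and 2.30 ± 0.93 in C57BL/6 (−1.55 ± 0.30, limma adjusted p = 0.000124). H2-Aa at 1443783_x_at averaged −0.69 ± 0.72 in B6129SF2/J and 0.96 ± 1.00 in C57BL/6 (−1.65 ± 0.32, adjusted p = 0.000123), which is near the array median in both lines. This probe set entered the test through untreated C57BL/6 and treated B6129SF2/J hearts alone, so its difference is partly fixed by the filter. H2-Eb1 read 3.79, 4.48 and 4.76, lowest, median and highest, in B6129SF2/J hearts, against 3.78, 4.70 and 5.16 in C57BL/6 hearts, and the ranges overlapped almost wholly (−0.23 ± 0.41, adjusted p = 0.771). Without all 7 arrays in doubt H2-D1 1425545_x_at (−0.63 ± 0.23) and H2-K1 1451931_x_at (−0.71 ± 0.23) passed too, 4 in all, where 20.3% of all passed.

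After isoproterenol the class I and B2m probe sets had higher means in FVB and B6129SF2/J hearts, but none of these differences passed the test within a line with all arrays in the fit. Averaged over the 4 lines, H2-K1 at 1427746_x_at rose by 0.62 ± 0.18 (log2, limma adjusted p = 0.00801), the only one of the 22 probe sets to pass, where 20% of all passed. The treated hearts read a lowest, median and highest of 3.60, 4.59 and 5.65 in FVB, against 2.72, 3.32 and 4.87 in untreated FVB. In B6129SF2/J this H2-K1 probe set read 3.54, 4.11 and 5.07 in treated hearts, against 2.43, 3.40 and 4.36 in untreated hearts. In both lines every treated heart lay above the untreated mean, as did 0.828% of all probe sets in FVB and 6.34% in B6129SF2/J, and the groups overlapped. In C57BL/6 it read 3.56, 4.32 and 5.10 in treated hearts, against 2.85, 4.17 and 5.08 in untreated hearts, and in B2KO −0.06, 3.92 and 4.98 in treated hearts, against 0.41, 3.80 and 4.62 in untreated hearts. The lowest values in B2KO were the failed array and untreated replicate 8. The averaged difference stayed between 0.53 and 0.78 in the alternatives run and passed in all 98.

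**Figure D3:**
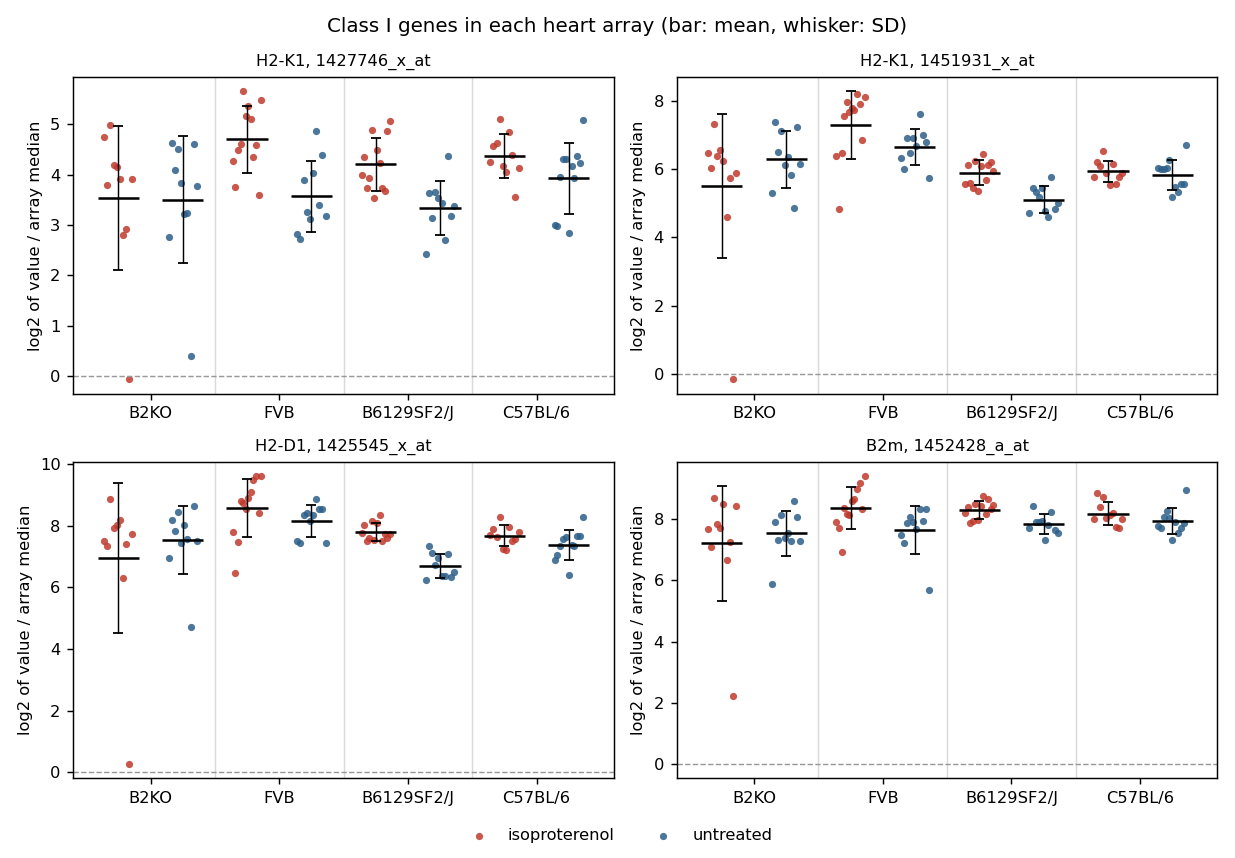
Level of 2 H2-K1 probe sets, 1 H2-D1 probe set and 1 B2m probe set in each heart array, as log2 of the value over the array's median, by line, with isoproterenol left of untreated in each line. Points are arrays, bars are group means and whiskers are SD; the lowest treated B2KO point in every panel is the failed array, and at H2-D1 1425545_x_at the treated B6129SF2/J hearts all lie above the untreated ones.

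The failed array enters the estimate of the spread, which all groups share. Without it, 7 of the 22 probe sets passed in the average over lines, where 25.6% of all passed, and all 7 were higher. They were 3 of H2-K1, 3 of H2-D1 and 1 of B2m: H2-K1 1427746_x_at rose by 0.72 ± 0.16 (limma adjusted p = 0.000275), H2-D1 1425545_x_at by 0.50 ± 0.14 (adjusted p = 0.00635) and B2m 1452428_a_at by 0.42 ± 0.12 (adjusted p = 0.0084). Without treated FVB replicate 2 as well, 10 passed, among them Tap1 (0.42 ± 0.16, adjusted p = 0.0411) and both probe sets of B2m, where 26.8% of all passed. No probe set of class II or Cd74 passed in either fit. Without the failed array and 4 arrays high in T cell markers, left out after seeing the data, 6 passed, 1 of them H2-Eb1 (0.53 ± 0.21, adjusted p = 0.0496), where 25.2% of all passed. H2-Eb1 had an averaged difference of 0.41 ± 0.21 with all arrays, and Cd74 of 0.16 ± 0.18.

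**Figure D4:**
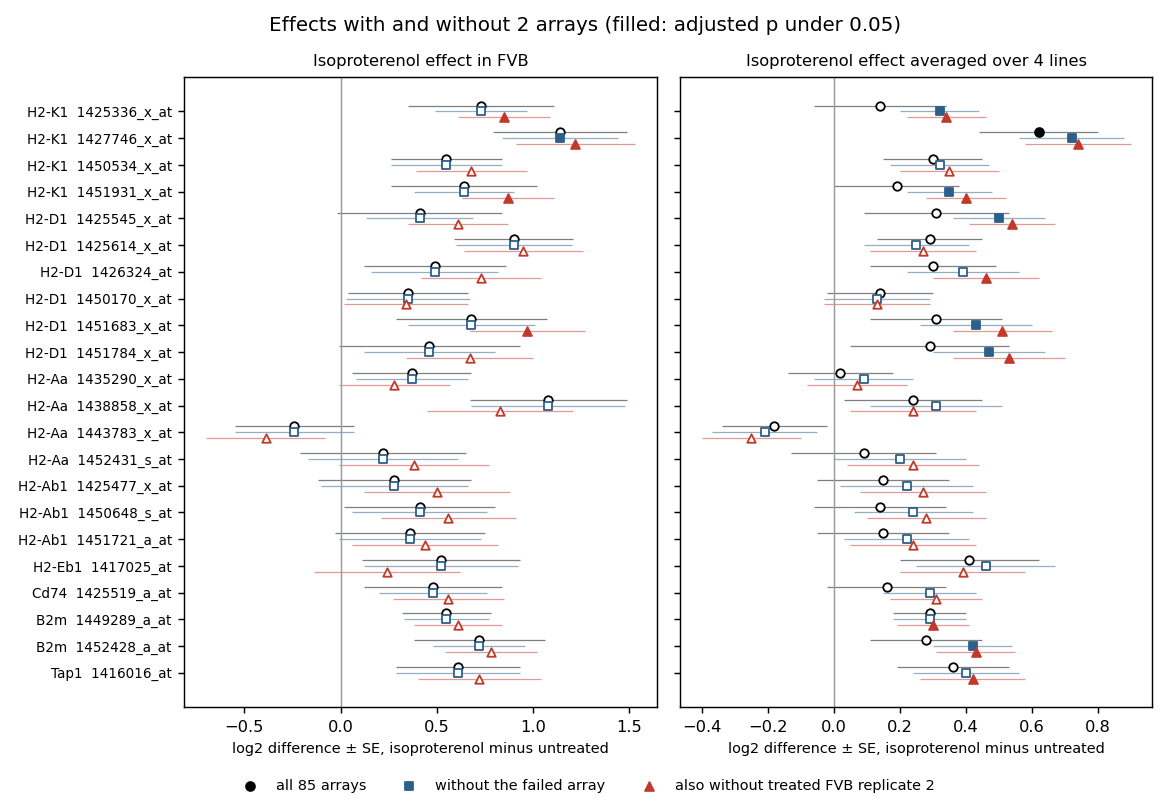
Isoproterenol effect in FVB and averaged over 4 lines at the 22 probe sets tested, in log2 units with SE, with all 85 arrays, without the failed array, and also without treated FVB replicate 2; filled marks passed limma's adjusted p under 0.05. In the average the number of filled marks is 1, 7 and 10, and in FVB it is 0, 1 and 4.

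In FVB hearts 21 of the 22 probe sets had a higher mean after isoproterenol, and the median difference was 0.51, against −0.01 over all probe sets. None passed by limma with all arrays, where 1.14% of all passed. H2-D1 1425614_x_at, among those with a higher mean, entered the test only through these treated hearts. The median was 0.60 over the 10 class I probe sets, 0.61 over the 3 of B2m and Tap1 and 0.37 over the 9 of class II and Cd74. H2-K1 1427746_x_at averaged 4.70 ± 0.66 in treated and 3.56 ± 0.70 in untreated FVB hearts (SD, n = 12 and 10, difference 1.14 ± 0.35, adjusted p = 0.0943). It passed without the failed array (adjusted p = 0.0243, where 2.19% of all passed). Without treated FVB replicate 2 as well, 4 probe sets passed, H2-K1 1427746_x_at at 1.22 ± 0.31, 1451931_x_at at 0.87 ± 0.24 and 1425336_x_at at 0.85 ± 0.24, and H2-D1 1451683_x_at at 0.97 ± 0.30, where 3.31% of all passed. H2-Eb1 had a difference of 0.52 ± 0.41 with treated FVB replicate 2 and 0.24 ± 0.38 without that array and the failed one.

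In B6129SF2/J hearts all 22 probe sets had a higher mean after isoproterenol, with a median difference of 0.45, against −0.01 over all probe sets. The median was 0.81 over class I, 0.46 over B2m and Tap1 and 0.31 over class II and Cd74. H2-D1 at 1425545_x_at read 7.51, 7.73 and 8.33, lowest, median and highest, in treated hearts, against 6.22, 6.61 and 7.34 in untreated hearts. Every treated heart lay above every untreated heart. Treated and untreated hearts did not overlap, in either direction, at 0.876% of all probe sets. Yet the H2-D1 difference of 1.10 ± 0.43 did not pass with all arrays (limma adjusted p = 0.124), and it passed without the failed array (SE 0.28, adjusted p = 0.00555). Every treated heart lay above the untreated mean at 8 of the 22 probe sets, 2 of H2-K1, 4 of H2-D1, 1 of H2-Aa and 1 of B2m, where 6.34% of all probe sets did so. With all arrays 1 probe set passed, H2-Aa 1443783_x_at (0.29 ± 0.50 in treated and −0.69 ± 0.72 in untreated hearts, difference 0.99 ± 0.31, adjusted p = 0.0456), where 5.06% of all passed. That call was lost in 17 of 98 alternatives, among them 14 that left out 1 heart of B6129SF2/J. In a fit of the B6129SF2/J arrays alone, 11 of the 22 passed, all higher, where 20.7% of all passed. H2-Aa 1443783_x_at entered the test through these treated hearts and untreated C57BL/6 hearts alone.

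**Figure D5:**
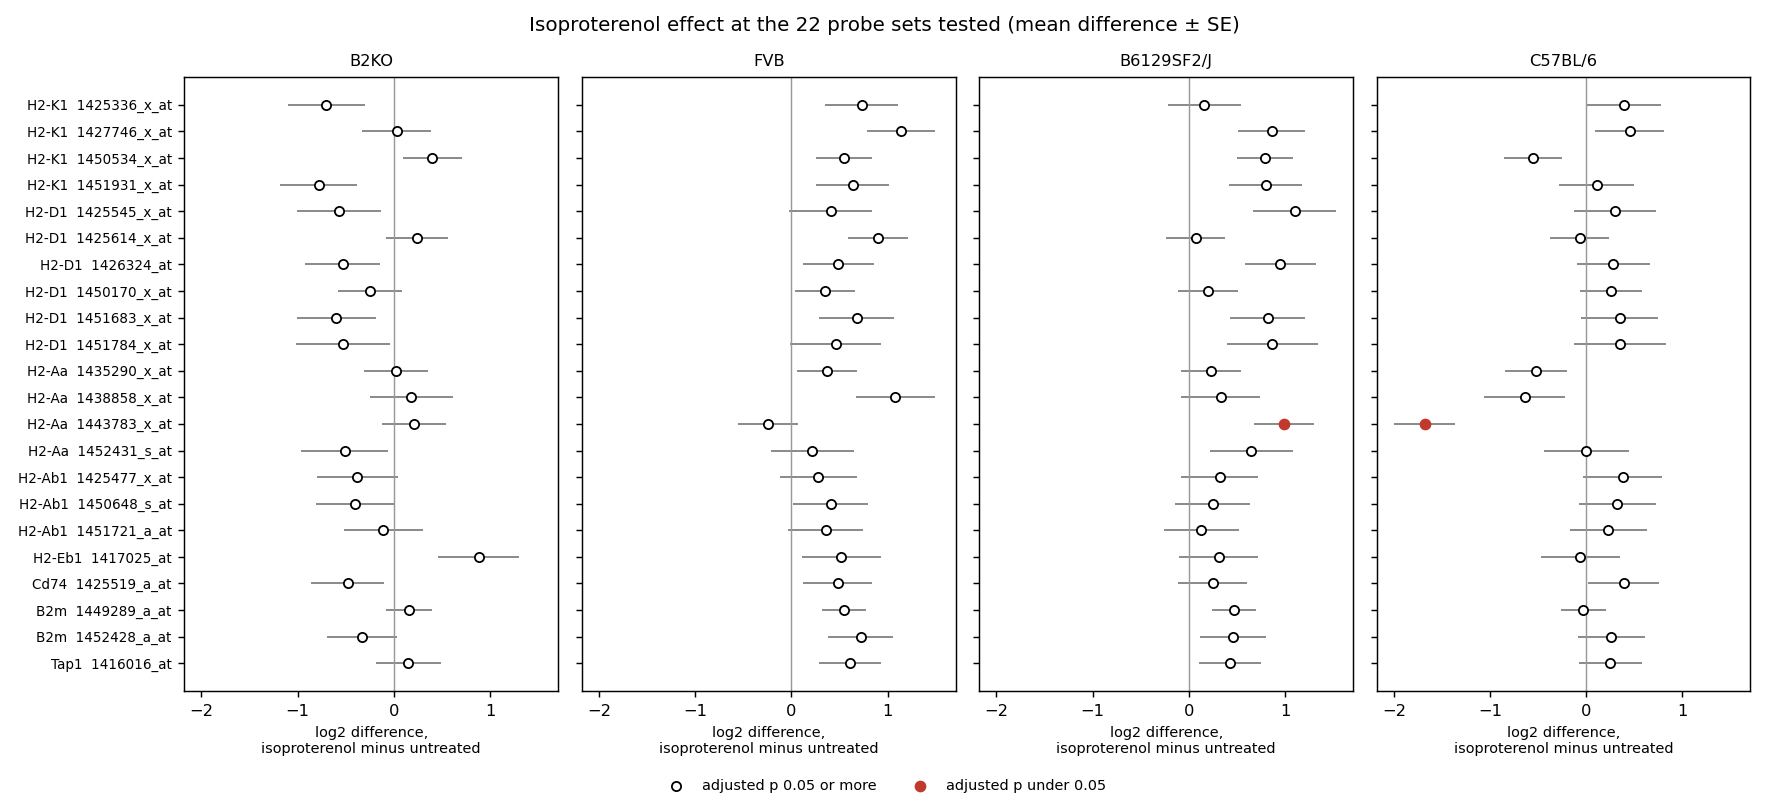
Isoproterenol effect at the 22 probe sets tested in B2KO, FVB, B6129SF2/J and C57BL/6 hearts, in log2 units with SE, treated minus untreated; filled points passed limma's adjusted p under 0.05. The means are positive at 22 probe sets in B6129SF2/J, 21 in FVB, 14 in C57BL/6 and 9 in B2KO.

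In C57BL/6 hearts, where 23.2% of all probe sets passed, 1 of the 22 passed and it was lower. H2-Aa at 1443783_x_at averaged −0.72 ± 0.87 in treated and 0.96 ± 1.00 in untreated hearts (−1.68 ± 0.32, limma adjusted p = 6.6e-05). This is a dim probe set, above the array median in these untreated hearts and in treated B6129SF2/J hearts only, and the other probe sets of H2-Aa had differences of −0.52 ± 0.32, −0.64 ± 0.42 and 0.00 ± 0.44. At H2-K1 1450534_x_at every treated C57BL/6 heart lay below the untreated mean, as did 8.35% of all probe sets, but the difference of −0.55 ± 0.30 did not pass (adjusted p = 0.181). H2-D1 1425545_x_at read 7.21, 7.66 and 8.29 in treated C57BL/6 hearts, against 6.39, 7.36 and 8.28 in untreated hearts, with nearly full overlap (0.30 ± 0.43, adjusted p = 0.664). Untreated C57BL/6 replicate 11, in doubt by its RNA, was the highest of its group at 15 of the 22 probe sets. Other C57BL/6 arrays, not in doubt, were also extreme. Untreated replicate 6 was the lowest of its group at 14 probe sets, and treated replicate 4 the highest of its group at 14. Without all 7 arrays in doubt H2-K1 1425336_x_at rose by 0.56 ± 0.22 in C57BL/6 (adjusted p = 0.0448), where 33.4% of all passed.

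In B2KO hearts none of the 22 probe sets passed by limma, where 0.848% of all passed. The median difference was −0.29, against −0.23 over all probe sets. H2-Eb1 had the largest difference, 0.88 ± 0.42 (2.24 ± 1.63 in treated and 1.36 ± 1.5 in untreated hearts). Without the failed array the median was 0.13, against −0.06 over all probe sets, and none passed. H2-K1 1425336_x_at was then at −0.01 ± 0.26, Cd74 at 0.04 ± 0.30 and H2-D1 1425545_x_at at 0.17 ± 0.30, against −0.70 ± 0.40, −0.48 ± 0.38 and −0.57 ± 0.44 with it.

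With all arrays, members passed no more often than all probe sets in any comparison of the response between lines. The counts moved under some alternatives, given below. The test of any difference among the 4 lines passed for H2-Aa 1443783_x_at alone (limma F test, adjusted p = 0.000215), where 8.8% of all probe sets passed. Its effect was higher than in C57BL/6 by 1.88 ± 0.46 in B2KO (adjusted p = 0.00587, where 10.9% of all passed) and by 2.67 ± 0.45 in B6129SF2/J (adjusted p = 1.82e-05). H2-K1 1450534_x_at passed for B6129SF2/J minus C57BL/6 (1.34 ± 0.42, adjusted p = 0.0267, where 10.2% of all passed), and was lost without untreated C57BL/6 replicate 3 or untreated B6129SF2/J replicate 6 (1.23 and 1.24, adjusted p = 0.0507 in each). Both probe sets were highest in untreated C57BL/6 hearts, which these comparisons share. H2-Aa 1443783_x_at entered the test through those hearts and treated B6129SF2/J hearts alone. For FVB minus C57BL/6 none passed, where 2.48% of all passed. H2-Aa 1443783_x_at passed there without the 4 arrays high in T cell markers (1.74 ± 0.44, adjusted p = 0.0167). The 6 probe sets below the filter gave no call in any effect when they were tested without it.

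Other genes of the class I pathway, which make, trim and load peptides, gave 2 of 14 tested that rose in the average over lines and none that fell, a share below the 20% of all probe sets that passed: Psmb8, a subunit of the immunoproteasome (0.51 ± 0.17, limma adjusted p = 0.0262), and H2-T24, a further class I heavy chain (0.52 ± 0.14, adjusted p = 0.00533). In C57BL/6, where 23.2% of all passed, 1 of these 14 passed: Tap2, the partner of Tap1, rose by 1.18 ± 0.30 (limma adjusted p = 0.00218). None of the 14 passed in the other lines. In the class II pathway 1 of 10 rose in the average, likewise below that share, Ctss, the protease that trims the invariant chain (0.52 ± 0.15, adjusted p = 0.00987). In C57BL/6, where 23.2% of all passed, 2 of these 10 rose, Lgmn (1.14 ± 0.35) and Ifi30 (0.60 ± 0.23), enzymes that work on antigen in endosomes. Ciita, the coactivator that class II genes need, lay below the array median in every group. Median averaged effects were 0.10 and 0.04 over the class I and class II lists, against −0.05 over all probe sets. All values for these lists come from the fit with all arrays, the failed array among them. Whether the counts and medians hold without the failed array was not tested, though the count of members in the average moved when it was left out.

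Of 16 interferon response genes tested, 3 rose and 1 fell in the average over lines, near the 20% of all probe sets that passed. The transcription factors Irf7, Irf8 and Stat2 rose by 0.72 ± 0.15, 0.41 ± 0.12 and 0.38 ± 0.14, and Iigp1, an interferon-induced GTPase, fell by 0.62 ± 0.18. In C57BL/6, where 23.2% of all passed, Irf7 rose by 1.65 ± 0.29 and Ifngr1, a chain of the interferon gamma receptor, by 0.94 ± 0.28, while Cxcl9, a chemokine induced by interferon gamma, fell by 1.42 ± 0.34. Cxcl9 was also lower in untreated FVB hearts than in untreated C57BL/6 hearts (−3.49 ± 0.34, limma adjusted p = 6.6e-14). The median averaged effect of the list was 0.08. These values too include the failed array, and whether the calls, the fall of Iigp1 among them, hold without it was not tested.

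Markers of cells that carry class II moved with some of these comparisons. Of 11 macrophage markers 4 rose in the average over lines, where 20% of all probe sets passed, and none fell, Fcgr1 by 0.75 ± 0.15, C1qc by 0.55 ± 0.17, Cd68 by 0.51 ± 0.18 and Adgre1 by 0.36 ± 0.10. The summed level of the 11, in multiples of the array median, ran from 185 to 759 in treated and 172 to 393 in untreated B2KO hearts, from 220 to 812 in treated and 143 to 541 in untreated FVB hearts, from 329 to 637 in treated and 255 to 400 in untreated B6129SF2/J hearts, and from 316 to 816 in treated and 273 to 717 in untreated C57BL/6 hearts. The ranges overlapped in every line. B cell markers, 4 of 5 lower after isoproterenol in B6129SF2/J, where 5.06% of all passed (Jchain −3.32 ± 0.64, Ighm −2.46 ± 0.51), summed to 3.98 to 30.1 in treated and 10.4 to 301 in untreated B6129SF2/J hearts. In the same hearts Cd74 averaged 6.36 ± 0.51 in treated and 6.11 ± 0.27 in untreated. Of the dendritic cell markers Itgax, Xcr1, Cd209a and Batf3 had means below the array median in every group, while Flt3 and Zbtb46 were above it in every group. Flt3 fell in C57BL/6 by 0.83 ± 0.28 (limma adjusted p = 0.025, where 23.2% of all passed). The T and NK cell markers Cd3d, Cd3g, Nkg7 and Gzma were below the median in every group, while Cd3e, Cd8a and Cd4 were above it in some. The summed level of 7 T and NK cell markers was 139 in treated FVB replicate 6, 35.9 in treated FVB replicate 1, 107 in treated C57BL/6 replicate 7 and 66.1 in untreated B2KO replicate 5, and at most 11.9 in the other arrays. In treated FVB replicates 6 and 1 H2-K1 1427746_x_at read 5.17 and 4.26, within the range of their group. Without these 4 arrays its difference was 1.13 ± 0.37 in FVB (limma adjusted p = 0.149), or 1.13 ± 0.32 without the failed array as well (adjusted p = 0.0444). None of the 2 dendritic cell, 3 T and NK cell or 6 heart muscle markers tested passed in the average over lines. Endothelial markers, of cells that carry class I, rose in 2 of 6 in the average (Pecam1 by 0.62 ± 0.22, Cdh5 by 0.59 ± 0.18) and in 4 of 6 in C57BL/6, where 20% and 23.2% of all passed. The calls for cell markers come from the fit with all arrays, and whether they hold without the failed array was not tested. The part of these cells in the levels of the members was not tested.

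The genes most like Cd74 and H2-K1 were looked for by Pearson's correlation of deviations from the group means over the arrays, which share labelling and array quality. The search covered tested probe sets named for a single gene, with those of the members left out. How closely the members follow each other was therefore not compared. For Cd74 over 85 arrays they were Psmb8 (r = 0.794), Grk6, Ly6e, Tmbim6 and Ddx39b. Over the 84 arrays without the failed one they were Psmb8 (r = 0.743), H2-DMa (r = 0.701), Grk6, Psmb9 and Pltp. H2-DMa helps to load class II molecules, and Psmb9 is another immunoproteasome subunit. For H2-K1 1425336_x_at over 85 arrays they were Vim (r = 0.891), Ddx39b, Ets2, Atp1b3 and Bcap31, and over 84 arrays Gbp2 (r = 0.735), an interferon-induced GTPase, Anapc5, Arhgef12, Dap3 and Ddx39b, so that 4 of the 5 names changed with 1 array.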

How the data were processed

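Heart RNA was read on 86 arrays of 45101 probe sets. The authors' deposited intensity values, made with GCRMA per the submitters' processing notes, have a median of 1 in every array and were taken to log2. The platform annotation gave 34945 probe sets 1 symbol, 932 several and 9160 none, and 64 controls were left out. Treated B2KO replicates 4 and 9 correlated at 0.99999976 (next pair 0.982) and were averaged as 1 array, leaving 85. The labels do not tie each array to 1 animal, so p-values measure the spread between arrays, whose number limits the precision (median SE of an effect 0.267 to 0.279 log2 units).

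The 24885 probe sets with a group mean above log2 0 were tested with limma 3.58.1 in R 4.3.3, in 1 fit over 8 groups, two-sided, with Benjamini-Hochberg adjustment over all probe sets tested and a threshold of 0.05. The fit was tested on simulated data. Python 3.11.15 with pandas 2.3.3 prepared the tables. Arrays failed at a median correlation under 0.7. RNA was doubted where Gapdh differed by over 2 between its ends, and strain where the distance to the array's own background, divided by that to the other, was 0.9 or more. The plan set each line against the nearest other line, but close lines could not be told apart, so 2 backgrounds were used and 1 array met the rule, fewer than planned for.

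Alternatives were the filter, the normalization, moderation, array weights, a replicate block, a fit of the compared groups alone, and arrays left out. Probe sets of members were named whatever their values. Each other gene was read by its probe set of highest mean, and up to 4 genes a list that passed in the average over lines were named. Those named for a single line were chosen after their values were seen. The members and lists were chosen with earlier results of these data known. Same-numbered arrays did not pair: the correlation of their deviations was over 0.1 in 4 of 9 pairs in B2KO, 2 of 10 in FVB, 1 of 10 in B6129SF2/J and 0 of 10 in C57BL/6.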

Additional observations from a re-analysis of the deposited data

Results flagged for a closer look

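Single arrays stood apart from their group, by Dixon's test, in 23 of 110 groups of values checked, where chance gives about 1 in 20. Groups of over 10 arrays were not checked. The failed array, treated B2KO replicate 10, was the lowest of its group in 10 of them. It read −0.62, −0.06 and −0.15 at H2-K1 1425336_x_at, 1427746_x_at and 1451931_x_at, and 0.27 and 0.06 at H2-D1 1425545_x_at and 1451784_x_at. It read 1.65 at H2-Aa 1435290_x_at, −0.11 and 0.12 at H2-Ab1 1450648_s_at and 1451721_a_at, 0.32 at Cd74 and 2.22 at B2m 1452428_a_at. Untreated B2KO replicate 8, in doubt by its RNA, was the lowest of its group in 6. It read 0.41 at H2-K1 1427746_x_at, 4.72, 0.84 and 2.35 at H2-D1 1425545_x_at, 1426324_at and 1451784_x_at, −0.89 at H2-Ab1 1425477_x_at and 3.17 at Cd74.

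The other 7 were spread over 6 arrays. Untreated B2KO replicate 1 was lowest at H2-Aa 1435290_x_at (1.95) and at B2m 1452428_a_at (5.87). Untreated FVB replicate 10 was lowest at B2m 1452428_a_at (5.68). In untreated B6129SF2/J, replicate 2 was highest at H2-D1 1426324_at (3.5), replicate 7 lowest at H2-Aa 1452431_s_at (1.86) and replicate 3 lowest at H2-Ab1 1425477_x_at (0.93). Treated C57BL/6 replicate 8 was lowest at H2-Eb1 (3.17).

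The isoproterenol effect differed between lines, by limma's test of the difference, at 2 of the 22 probe sets. H2-K1 1450534_x_at differed by 1.34 for B6129SF2/J minus C57BL/6, where 10.2% of all probe sets passed. H2-Aa 1443783_x_at differed by 2.67 in that comparison and by 1.88 for B2KO minus C57BL/6, where 10.9% of all passed. By limma's F test over the 4 lines its adjusted p was 0.000215, where 8.8% of all passed. It entered the test through untreated C57BL/6 and treated B6129SF2/J hearts alone, so these differences are partly fixed by the filter.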

How the results depend on the processing

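Between untreated FVB and C57BL/6, 10 probe sets passed with all arrays and 9 to 13 under the alternatives that leave out no single array. Of 18 named results under 1775 settings, none changed direction and 21 lost the call, 17 of them H2-Aa 1443783_x_at in B6129SF2/J (adjusted p up to 0.108). The B2KO effect gave no call with all arrays or under any alternative. The other counts of member probe sets that passed moved under the alternatives below, each count followed by the share of all probe sets tested that passed in that fit. A small change, such as from 2 to 3, was read as no move and is not always listed. The cause was not tested beyond what each alternative leaves out. The 3 arrays left out are the failed array, treated FVB replicate 2 and treated B2KO replicate 7, and the 4 T arrays are those high in T and NK cell markers (a summed level over 20), both chosen after seeing the data.

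For the FVB effect, the count was 0 with all arrays (1.14%), and it was 1 with centring (2.95%), 1 without the failed array (2.19%), 4 also without treated FVB replicate 2 (3.31%), 5 without 3 arrays (3.41%), 4 without 7 arrays (5.02%), 5 with weights (10.1%), 1 without the failed and the 4 T arrays (1.8%) and 1 with the compared groups alone (0.784%). For C57BL/6, 1 with all arrays (23.2%), it was 0 with the stricter filter (19.1%), 2 without 7 arrays (33.4%) and 2 with the compared groups alone (26.8%). For B6129SF2/J, 1 with all arrays (5.06%), it was 0 with no filter (2.45%), 0 with the stricter filter (4.9%), 3 with quantile normalization (7.03%), 3 with centring (7.91%), 3 without the failed array (7.99%), 4 also without treated FVB replicate 2 (8.34%), 5 without 3 arrays (8.5%), 5 without 7 arrays (9.07%), 10 with weights (24.9%), 3 without the failed and the 4 T arrays (8.23%) and 11 with the compared groups alone (20.7%). For the average over lines, 1 with all arrays (20%), it was 3 with quantile normalization (21.9%), 7 without the failed array (25.6%), 10 also without treated FVB replicate 2 (26.8%), 10 without 3 arrays (26.8%), 10 without 7 arrays (25.4%), 9 with weights (35%) and 6 without the failed and the 4 T arrays (25.2%).

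For FVB minus C57BL/6, 0 with all arrays (2.48%), it was 1 with quantile normalization (2.92%), 1 without the failed array (4.69%), 4 with weights (10.4%), 1 without the 4 T arrays (2.75%) and 1 without the failed and the 4 T arrays (5.55%). For B2KO minus C57BL/6, 1 with all arrays (10.9%), it was 0 with the stricter filter (10.9%), 2 with centring (9.82%) and 2 with weights (18.8%). For B6129SF2/J minus C57BL/6, 2 with all arrays (10.2%), it was 1 with the stricter filter (7.54%), 3 with quantile normalization (11.5%), 3 with weights (27.5%) and 6 with the compared groups alone (20.5%). Between untreated B2KO and FVB, 0 with all arrays (0.0402%), it was 1 without 3 arrays (0.1%) and 1 with weights (0.591%). Between untreated B6129SF2/J and C57BL/6, 2 with all arrays (11.2%), it was 1 with the stricter filter (9.96%), 4 without 7 arrays (20.3%), 4 with weights (28.9%) and 5 with the compared groups alone (15.7%). For any difference among lines, 1 with all arrays (8.8%), it was 0 with the stricter filter (7.11%), 2 with centring (10.8%), 5 without 7 arrays (17.2%) and 9 with weights (29.9%). The stricter filter, at log2 2, leaves out H2-Aa 1443783_x_at by construction.

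Leaving out 1 array at a time gave 0 to 1 for the FVB effect (1 without treated B2KO replicate 10, untreated B2KO replicate 8 or untreated FVB replicate 7), 1 to 1 for C57BL/6, 0 to 0 for B2KO, 0 to 3 for B6129SF2/J (0 for 14 arrays of that line, 3 without the failed array) and 1 to 7 for the average (7 without the failed array, 2 for 8 others). It gave 0 to 1 for FVB minus C57BL/6 (1 for 8 arrays), 1 to 1 for B2KO minus C57BL/6 and 1 to 2 for B6129SF2/J minus C57BL/6. It gave 8 to 12 between untreated FVB and C57BL/6 (8 without untreated FVB replicate 7, 12 without the failed array), 0 to 1 between untreated B2KO and FVB (1 without untreated B2KO replicate 1), 2 to 2 between untreated B6129SF2/J and C57BL/6, and 1 to 2 for any difference among lines (2 without untreated B2KO replicate 8 or untreated C57BL/6 replicate 7). With the replicate number as a block, whose correlation was 0.00223, the counts were 1 for the average, 0 for FVB, 1 for C57BL/6 and 1 for B6129SF2/J, and no count changed.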
